A study of Mus musculus with 7 samples.

Results

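The genes that carry a cell through G2 phase and mitosis were examined in mouse leukemia cells exposed to BRD7116, a small molecule known here by its code name. The set was a list of 40 named genes, taken from known roles in mitotic entry, the spindle checkpoint, the kinetochore, the spindle and cytokinesis, and a probe belonged to it when the platform annotation gave it one of these symbols. Of the 25697 probes on the array, 51 met this rule and covered 35 of the 40 genes. Of these 35 genes, 22 had a probe that was detected on at least 2 of the 7 arrays and were tested among 6969 features.

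The cells were labelled leukemia stem cells, freshly isolated from mouse, and no strain, age or driving oncogene is stated in the labels. BRD7116 at 5 µM was added for 6 h to 250000 cells per well in suspension, and 5 arrays were made from such samples. The vehicle group of 2 arrays had DMSO alone for the same time, and both groups carried 0.2% DMSO. Nothing in the labels states that replicates were separate cultures or animals, so the p-values below rest on the scatter of these 7 arrays, part of which may be technical.

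Passage through mitosis is driven by a cyclin-dependent kinase, Cdk1, which is held inactive by phosphorylation until Cdc25 phosphatases release it. Chromosomes then condense and attach through kinetochores to spindle microtubules, while the spindle checkpoint restrains the anaphase-promoting complex until every chromosome is attached. Transcripts of most of these genes accumulate in G2 and are low in resting cells, so their summed level in a cell population follows how many of its cells are cycling. In bulk RNA, fewer cells in G2 or mitosis and less of these transcripts per cell cannot be told apart.

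By the array identifiers in the labels, the 7 arrays lay on 3 chips. On one of them, called the dim chip here, the brightest probe of an array read 4515 and 4704, against at least 27582 elsewhere. It carried 1 treated array (BRD7116 replicate 1) and 1 control (DMSO replicate 2), with 4585 and 4412 of all probes detected, against 6749 to 8451 on the other arrays. The median raw intensity over the tested mitotic genes was 225 and 252 on the dim chip and 372 to 708 elsewhere. A second chip carried the arrays of BRD7116 replicate 2 and DMSO replicate 1, and BRD7116 replicates 3, 4 and 5 had a chip to themselves. Of 6 markers of myeloid progenitors, 5 were detected on all arrays, whereas 0 of 5 stromal markers were detected on any array. Markers of B cells (Cd79b) and of T and NK cells (Nkg7) were seen for 1 of 5 genes each. Of 6 red cell markers, Hba-a1 alone passed the filter and Epb42 was detected on 1 array. The Hba-a1 linear normalized intensity was 136 to 210 with BRD7116 and 312 to 353 with DMSO. The groups did not overlap in this marker, and its part in the values below was not tested.

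Many classical mitotic transcripts were not detected by their probes. A probe was called detected when its signal exceeded the negative controls of the array at a detection p under 0.05. The 16 genes detected on all 7 arrays were Cdk1, Plk1, Aurka, Cdc20, Mad2l1, Cenpa, Birc5, Cdca8, Kif11, Kif22, Kif23, Kif2c, Nusap1, Prc1, Anln and Top2a. A further 6 genes, Cdc25b, Cdc25c, Bub3, Ndc80, Spc25 and Incenp, were detected on 5 or 6 arrays. Of these 6, Bub3, Cdc25c and Spc25 were missed on both arrays of the dim chip, Incenp and Ndc80 on its DMSO array, and Cdc25b on its BRD7116 array and on BRD7116 replicate 4.

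The other 13 genes with a probe did not pass the detection filter. Ccna2, Ube2c and Cenpe, which encode cyclin A2, a ubiquitin-conjugating enzyme of the anaphase-promoting complex and a kinetochore kinesin, were each detected on 1 array, BRD7116 replicate 2. Ccnb2, Bub1, Bub1b, Ttk, Pttg1, Nuf2, Kif20a, Tpx2, Hmmr and Ect2 were detected on 0 arrays. Raw intensity over the 7 arrays was 125 to 195 for the cyclin B2 probe and 126 to 181 for the probe of Pttg1, which encodes securin. No probe carried the symbols Ccnb1, Cenpf, Aurkb, Racgap1 or Mki67. Probes of the same gene could differ in this respect. Of the 3 Cdk1 probes, 1 was detected on all 7 arrays, with raw intensities of 230 to 943, and the other two on 0, with 136 to 194 and 128 to 185. The same held for Anln and Nusap1, each with 1 of 3 probes detected on all arrays, whereas all 3 Birc5 probes and 3 of 4 Cdc20 probes were. An undetected probe therefore does not show that the transcript was missing.

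**Figure D1:**
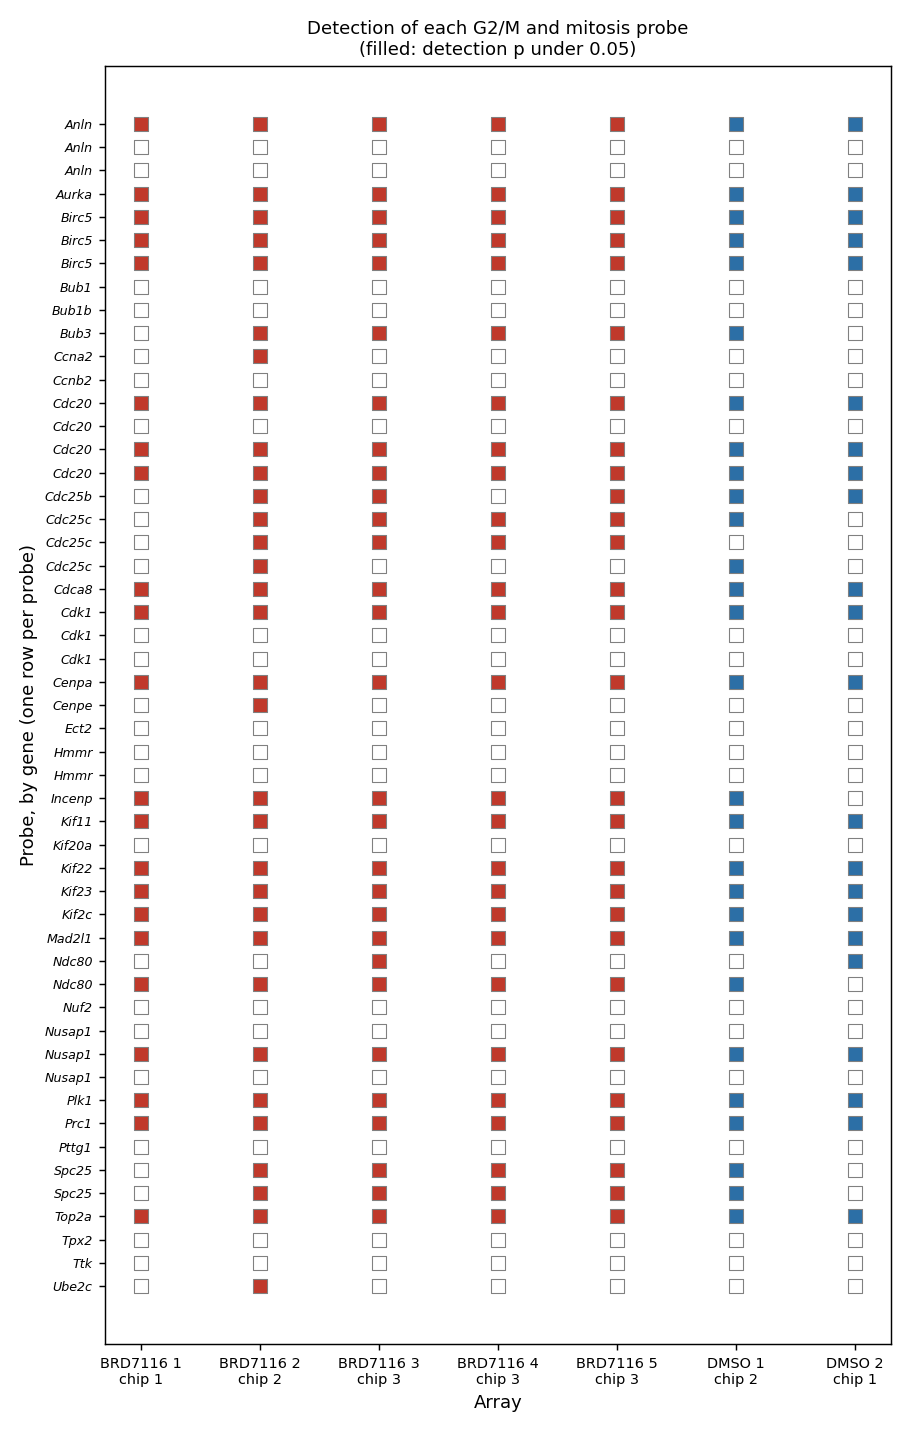
Detection of the 51 probes of the G2/M and mitosis genes (rows, by gene) on the 7 arrays (columns, with their chip). A filled square marks a detection p under 0.05, red for BRD7116 and blue for DMSO. The 16 genes with a probe filled in all 7 columns can be told from the 10 genes with no filled square, and Cdk1, Anln and Nusap1 each have 1 filled row and 2 empty rows.

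Promoters of the set were compared for the sequence elements that G2/M genes are known for. In such promoters a cell cycle genes homology region, or CHR, is bound by the MuvB complex, and CCAAT boxes upstream of it are bound by NF-Y. The letters searched were TTTGAA and TTTAAA for the CHR and CCAAT for the box, each on both strands, and matches of the 2 motifs can share at most an end letter. Windows of 300 bases, from 250 before to 50 after an annotated gene start, came from RefSeq for build GRCm38.p6 and were matched by symbol for 34 of the 40 genes. A CHR match was present in 28 of the 34, or 82.4%, against 30.6% of 27025 genes in the table. A CCAAT match was present in 26, or 76.5%, against 41.1%. Both were present in 24, or 70.6%, against 13.4%. Among the 20 tested genes with a window, 13 held both. The rule that chose the genes did not use sequence, and a match is a description of the letters, not evidence of binding.

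The promoters of 4 genes are shown because they span this range and recur in the results, with the CHR and CCAAT letters in capitals and all else in lower case, 5′ to 3′ along the gene. Cdk1 (chr10:69352863-69353162 on the minus strand) and Aurka (chr2:172370521-172370820 on the minus strand) held both motifs, and Cdc25b (chr2:131186698-131186997 on the plus strand) held a single CCAAT match. Mad2l1 (chr6:66534971-66535270 on the plus strand) held neither, which says only that these letters are not in this window.
Cdk1: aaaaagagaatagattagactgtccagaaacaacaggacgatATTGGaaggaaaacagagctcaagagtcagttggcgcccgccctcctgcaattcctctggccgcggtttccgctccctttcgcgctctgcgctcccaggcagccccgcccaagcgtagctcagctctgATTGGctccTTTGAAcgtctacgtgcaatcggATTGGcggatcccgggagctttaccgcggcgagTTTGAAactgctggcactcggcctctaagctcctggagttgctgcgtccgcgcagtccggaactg
Aurka: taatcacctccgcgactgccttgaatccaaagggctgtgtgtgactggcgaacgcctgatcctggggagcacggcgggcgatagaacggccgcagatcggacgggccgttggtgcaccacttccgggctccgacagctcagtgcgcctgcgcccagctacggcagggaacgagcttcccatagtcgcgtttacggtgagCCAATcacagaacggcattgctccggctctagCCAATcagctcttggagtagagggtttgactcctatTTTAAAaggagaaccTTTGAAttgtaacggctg
Cdc25b: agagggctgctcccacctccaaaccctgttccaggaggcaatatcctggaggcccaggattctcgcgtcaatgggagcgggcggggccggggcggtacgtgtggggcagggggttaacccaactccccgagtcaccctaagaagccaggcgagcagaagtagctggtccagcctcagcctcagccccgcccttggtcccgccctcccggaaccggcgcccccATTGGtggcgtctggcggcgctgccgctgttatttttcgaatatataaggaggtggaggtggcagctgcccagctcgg
Mad2l1: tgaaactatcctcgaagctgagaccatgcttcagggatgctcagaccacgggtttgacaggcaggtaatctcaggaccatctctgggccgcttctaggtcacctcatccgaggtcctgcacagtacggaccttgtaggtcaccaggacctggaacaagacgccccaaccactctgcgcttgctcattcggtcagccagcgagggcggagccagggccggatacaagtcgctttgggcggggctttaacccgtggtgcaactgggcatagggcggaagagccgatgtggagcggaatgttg
In Cdk1, with the gene start as base 0 and upstream bases negative, CHR matches lay at -71 to -66 and -15 to -10 and CCAAT matches at -208 to -204, -80 to -76 and -48 to -44. In Aurka the CCAAT matches at -51 to -47 and -19 to -15 preceded CHR matches at 17 to 22 and 32 to 37, downstream of the start.

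BRD7116 was compared with DMSO to ask which of these transcripts differed after 6 h of exposure. None of the 22 tested genes passed an adjusted p of 0.05 with limma, where 0% of all 6969 features did. At an unadjusted p under 0.05 there was 1 gene, Cdc25b, or 1 of 22 against 7.07% of all features. Of the 22 genes, the mean was higher in treated cells for 12 and lower for 10, and their median log2 fold change was 0.075, against 0.046 over all features. Over the 16 genes detected on every array, the mean was higher for 7 and lower for 9, and the median was -0.053, against -0.026 over the 2714 features so detected. Values in the paragraphs that follow are background-corrected, quantile-normalized log2 intensities of the gene's brightest probe, and fold changes are BRD7116 over DMSO on the same scale.

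**Figure D2:**
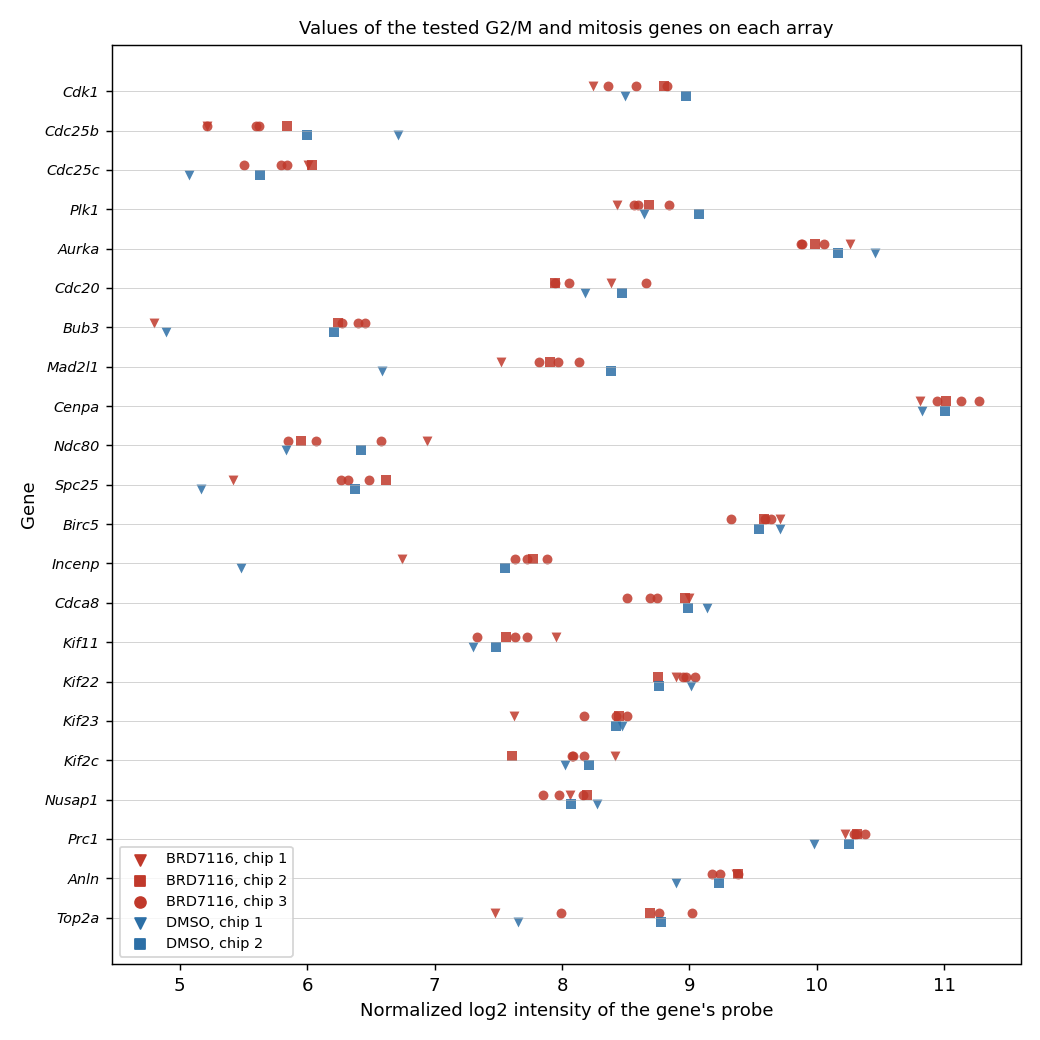
Normalized log2 intensity of each tested G2/M and mitosis gene (rows) on each array (points, x axis). Colour gives the group, with 5 BRD7116 and 2 DMSO arrays, and shape gives the chip, with triangles for the dim chip (chip 1 in the legend). Only for Cdc25b do all BRD7116 points lie on one side of both DMSO points. Of the 22 genes, 7 have their lowest point on BRD7116 replicate 1 and 8 on DMSO replicate 2, the arrays of the dim chip. Each of these arrays also holds the highest point of 4 genes.

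Among the regulators of mitotic entry, Cdc25b stood lowest. Cdc25b encodes a phosphatase that activates Cdk1 at the start of mitosis. Its probe read 5.21, 5.84, 5.60, 5.22 and 5.62 in BRD7116 replicates 1 to 5 and 6.00 and 6.72 in the 2 DMSO replicates. All 5 treated values lay below both controls, the only one of the 22 genes whose groups did not overlap, where 11.1% of all features had groups that did not overlap and 5.4% had all treated values lower. The means were 5.50 ± 0.28 (SD, n = 5) against 6.36 ± 0.51 (SD, n = 2), which gives a log2 fold change of -0.86 (standard error 0.27, adjusted p = 0.658) with an unadjusted limma p of 0.0132. Its level was near background, with detection on 3 of 5 treated arrays and both controls. Its difference was -1.50 between the 2 arrays of the dim chip but -0.16 between those of the second, and the estimate was -0.28 without background correction and -0.24 with the authors' deposited values. Without DMSO replicate 2 it was -0.54.

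Cdc25c, a phosphatase of the same family that acts on Cdk1, had a mean on the other side. Its brightest probe read 6.01, 6.03, 5.50, 5.79 and 5.84 in BRD7116 replicates 1 to 5 and 5.63 and 5.07 in the 2 DMSO replicates. DMSO replicate 2 lay below all treated values, while DMSO replicate 1 lay above the lowest of them. The log2 fold change was 0.48 (standard error 0.23, adjusted p = 0.658). It was detected on 4 treated arrays and 1 control, and the estimate was 0.78 without DMSO replicate 1 and 0.22 without DMSO replicate 2. It was 0.15 without background correction and 0.14 with the authors' deposited values. Of the other 2 Cdc25c probes that passed the filter, one was detected on 4 treated arrays and 0 controls, so no difference is given for it. The other, detected on 1 array of each group, gave -0.57, of opposite sign and near background. With the mean of its probes in place of the brightest, Cdc25c had 0.15. The direct difference between the 2 phosphatase genes was not tested.

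The kinases of mitotic entry had slightly lower means with BRD7116. Cdk1, the kinase that drives entry into mitosis, read 8.24, 8.80, 8.36, 8.58 and 8.82 in BRD7116 replicates 1 to 5 and 8.97 and 8.50 in the 2 DMSO replicates. DMSO replicate 1 was above every treated array and DMSO replicate 2 lay among them. Its log2 fold change was -0.17 (standard error 0.24, adjusted p = 0.818), with a 95% confidence interval of -0.72 to 0.38. For Plk1, a kinase of centrosome maturation and mitotic exit, the values were 8.43, 8.68, 8.60, 8.57 and 8.84 in BRD7116 replicates 1 to 5 and 9.07 and 8.64 in the 2 DMSO replicates, and again only DMSO replicate 1 stood above all treated arrays. The Plk1 log2 fold change was -0.23 (standard error 0.20, adjusted p = 0.733), which was -0.013 without DMSO replicate 1 and -0.45 without DMSO replicate 2. Aurka, a centrosomal kinase that activates Plk1, gave 10.26, 9.98, 9.87, 10.05 and 9.88 in BRD7116 replicates 1 to 5 and 10.16 and 10.45 in the 2 DMSO replicates. Here DMSO replicate 2 was the highest array and BRD7116 replicate 1, from the same dim chip, the next, and the log2 fold change was -0.30 (standard error 0.19, adjusted p = 0.684), or -0.15 without DMSO replicate 2. Within both chips that held each group the 3 kinases were lower with BRD7116, with differences of -0.25 and -0.17 for Cdk1. The differences were -0.21 and -0.39 for Plk1 and -0.19 and -0.18 for Aurka. None of the 3 passed the threshold, and relative to all genes median scaling gave 0.11 for Cdk1 and 0.050 for Plk1.

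Of the spindle checkpoint and anaphase genes, 3 of 8 were tested. Cdc20 activates the anaphase-promoting complex, and its brightest probe read 8.38, 7.95, 8.05, 8.66 and 7.95 in BRD7116 replicates 1 to 5 and 8.47 and 8.18 in the 2 DMSO replicates. Both controls fell inside the treated range, and the log2 fold change was -0.13 (standard error 0.25, adjusted p = 0.866). The other two Cdc20 probes detected on all arrays gave 0.37 and 0.16, of opposite sign. Mad2l1 encodes the checkpoint protein MAD2, which binds Cdc20 and restrains it. Mad2l1 read 7.52, 7.90, 7.97, 7.82 and 8.13 in BRD7116 replicates 1 to 5 and 8.38 and 6.59 in the 2 DMSO replicates, so that the 2 controls were the highest and the lowest of all 7 arrays. Its log2 fold change of 0.38 (standard error 0.43, adjusted p = 0.779) had a 95% confidence interval of -0.61 to 1.38, and the differences within the chips had opposite signs, 0.93 in the dim chip and -0.48 in the second. Bub3, a checkpoint protein that recruits Bub1 kinases to kinetochores, read 4.80, 6.25, 6.27, 6.46 and 6.40 in BRD7116 replicates 1 to 5 and 6.21 and 4.89 in the 2 DMSO replicates. Its 2 lowest values came from the 2 arrays of the dim chip, and the other 5 arrays lay within a narrow band. The Bub3 log2 fold change was 0.48 (standard error 0.52, adjusted p = 0.776), and within chips the differences were -0.097 and 0.034.

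At the centromere and kinetochore, 3 genes were tested and none stood apart between the groups. Cenpa encodes the histone H3 variant that marks centromeres, and it read 10.81, 11.01, 11.27, 10.94 and 11.13 in BRD7116 replicates 1 to 5 and 11.01 and 10.82 in the 2 DMSO replicates. Both controls lay within the treated range, the log2 fold change was 0.12 (standard error 0.19, adjusted p = 0.840). It was 0.025 without DMSO replicate 2, and within the chips the differences were -0.012 and 0.0046. Ndc80 and Spc25 encode subunits of the complex that grips spindle microtubules. Their log2 fold changes were 0.15 (standard error 0.34, adjusted p = 0.882) for Ndc80 and 0.45 (standard error 0.41, adjusted p = 0.740) for Spc25. Ndc80 was detected on all treated arrays and 1 control, and its differences within the chips were 1.10 and -0.47. A second Ndc80 probe, detected on 1 array of each group, gave -0.67, of opposite sign and near background. The Spc25 differences within the chips were 0.25 and 0.24, and a second Spc25 probe gave 0.72, on the same side.

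The chromosomal passenger complex, which corrects faulty attachments of chromosomes to the spindle, had 3 of its members tested, and their means did not lie on the same side. Incenp, the scaffold of the complex, had the highest log2 fold change of the set, 1.03 (standard error 0.54, adjusted p = 0.665). Its probe read 6.75, 7.77, 7.73, 7.88 and 7.63 in BRD7116 replicates 1 to 5 and 7.56 and 5.48 in the 2 DMSO replicates, with means of 7.55 ± 0.46 (SD, n = 5) against 6.52 ± 1.47 (SD, n = 2). The range of the 5 treated values took in DMSO replicate 1, while DMSO replicate 2, where the probe was not detected, lay far below every other array. Between the 2 arrays of the dim chip the difference was 1.27, and between those of the second chip 0.21. Without DMSO replicate 2 it was -0.0080, and with the authors' deposited values 0.34. Birc5, which encodes survivin, read 9.71, 9.58, 9.33, 9.64 and 9.59 in BRD7116 replicates 1 to 5 and 9.55 and 9.71 in the 2 DMSO replicates. The Birc5 controls lay within the treated range, and the log2 fold change was -0.060 (standard error 0.18, adjusted p = 0.909). The other Birc5 probes, also detected on all arrays, gave -0.045 and 0.24, the latter of opposite sign. Cdca8, which encodes borealin, gave 9.00, 8.97, 8.51, 8.69 and 8.75 in BRD7116 replicates 1 to 5 and 8.99 and 9.14 in the 2 DMSO replicates. DMSO replicate 2 was the highest Cdca8 array and DMSO replicate 1 fell just below the highest treated array, with a log2 fold change of -0.28 (standard error 0.19, adjusted p = 0.694).

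The mitotic kinesins and spindle proteins, with 6 of 9 genes tested, had a median log2 fold change of -0.0066 and a range of -0.21 to 0.25. Kif11, the motor that pushes spindle poles apart, had the highest of them. It read 7.96, 7.56, 7.33, 7.73 and 7.63 in BRD7116 replicates 1 to 5 and 7.49 and 7.30 in the 2 DMSO replicates. DMSO replicate 2 was the lowest array, the other control lay among the treated values, and the log2 fold change was 0.25 (standard error 0.21, adjusted p = 0.728), or 0.16 without DMSO replicate 2. Kif23, a motor of the central spindle, had the lowest, with 7.63, 8.45, 8.51, 8.18 and 8.42 in BRD7116 replicates 1 to 5 and 8.42 and 8.47 in the 2 DMSO replicates. Both controls lay near the top of the treated range, above BRD7116 replicate 1 by a wide margin, and the log2 fold change was -0.21 (standard error 0.26, adjusted p = 0.798). It was -0.057 without that array. Kif23 differed by -0.84 between the 2 arrays of the dim chip and by 0.028 between those of the second.

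For the remaining 4 spindle genes the estimates lay close to 0. Kif22, a motor that binds chromosome arms, read 8.89, 8.75, 9.04, 8.95 and 8.97 in BRD7116 replicates 1 to 5 and 8.76 and 9.01 in the 2 DMSO replicates, with a log2 fold change of 0.034. Kif2c, which takes microtubules apart at centromeres, read 8.42, 7.60, 8.09, 8.08 and 8.17 in BRD7116 replicates 1 to 5 and 8.21 and 8.03 in the 2 DMSO replicates, with a log2 fold change of -0.047. In both genes the 2 controls lay inside the treated range. Nusap1, a protein that stabilises spindle microtubules, read 8.07, 8.20, 8.17, 7.98 and 7.85 in BRD7116 replicates 1 to 5 and 8.07 and 8.27 in the 2 DMSO replicates, with a log2 fold change of -0.12. The highest Nusap1 array was DMSO replicate 2 and the other control lay among the treated arrays, and the estimate was -0.022 without DMSO replicate 2. Prc1 bundles the microtubules of the central spindle, and of the 22 genes it had the smallest standard deviation over the treated arrays, 0.054. Prc1 read 10.22, 10.32, 10.37, 10.29 and 10.30 in BRD7116 replicates 1 to 5 and 10.25 and 9.98 in the 2 DMSO replicates. Only BRD7116 replicate 1 fell below DMSO replicate 1, while DMSO replicate 2 was the lowest array. Its log2 fold change was 0.18 (standard error 0.16, adjusted p = 0.738), with a 95% confidence interval of -0.19 to 0.56. It was 0.32 without DMSO replicate 1 and 0.048 without DMSO replicate 2. The adjusted p-values of the other three were 0.951 for Kif22, 0.950 for Kif2c and 0.827 for Nusap1.

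Cytokinesis and chromosome structure were each represented by 1 tested gene. Anln encodes anillin, a scaffold of the contractile ring, and read 9.36, 9.38, 9.24, 9.17 and 9.38 in BRD7116 replicates 1 to 5 and 9.23 and 8.90 in the 2 DMSO replicates. DMSO replicate 2 was the lowest Anln array and DMSO replicate 1 exceeded 1 treated array. The log2 fold change was 0.24 (standard error 0.18, adjusted p = 0.701), with a 95% confidence interval of -0.16 to 0.65. It was 0.41 without DMSO replicate 1 and 0.073 without DMSO replicate 2, and the differences within the chips were 0.47 and 0.14. Top2a encodes the topoisomerase that untangles sister chromatids. It read 7.47, 8.69, 9.02, 7.99 and 8.76 in BRD7116 replicates 1 to 5 and 8.77 and 7.65 in the 2 DMSO replicates, and the 2 arrays of the dim chip were the lowest in their group. The Top2a log2 fold change was 0.17 (standard error 0.47, adjusted p = 0.901), and its differences within the chips were -0.18 and -0.087.

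**Figure D3:**
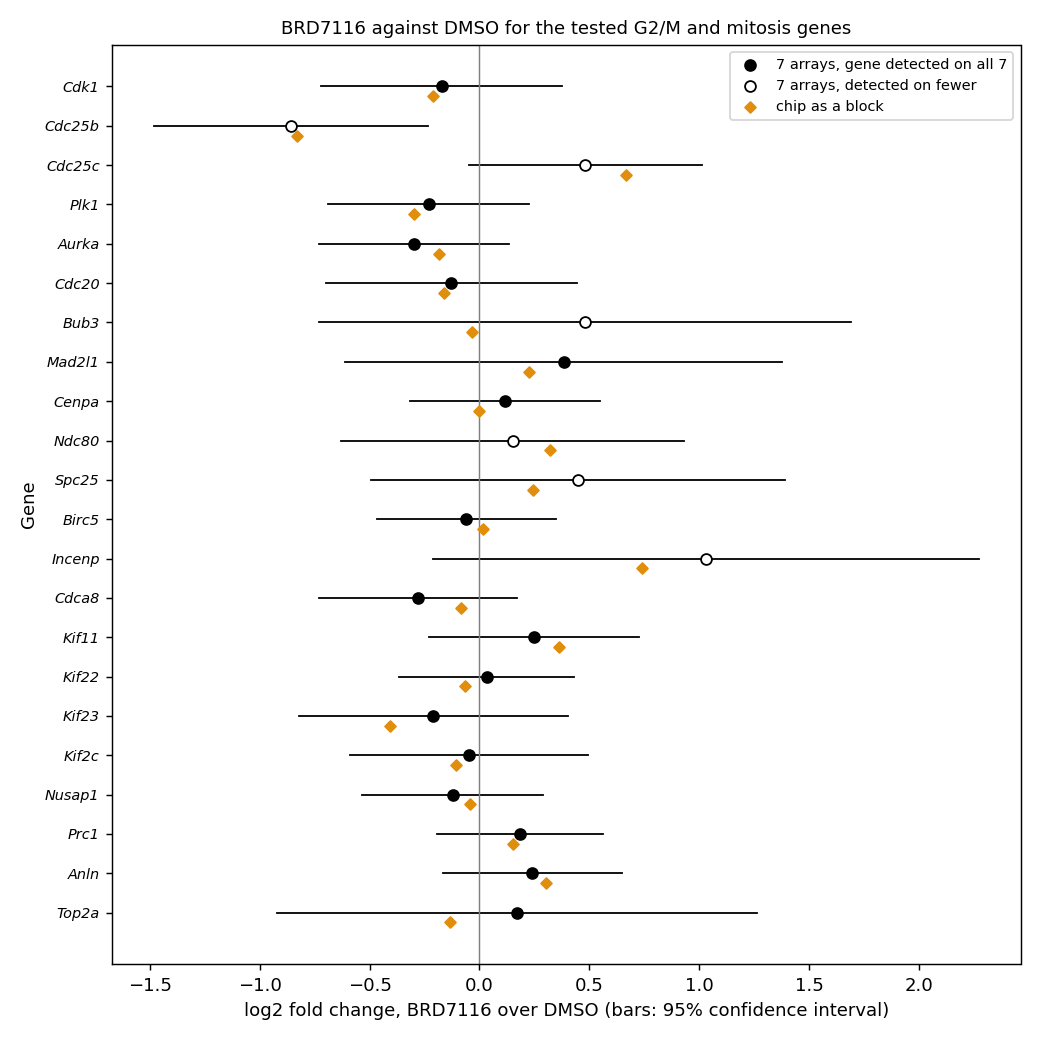
Log2 fold change of BRD7116 over DMSO for the 22 tested genes (points), with 95% confidence intervals (bars). Filled points are genes detected on all 7 arrays, open points genes detected on fewer, and diamonds the estimate with chip as a block. The interval of Cdc25b lies below 0 and the other 21 intervals include 0, while the widest belong to Incenp, Bub3 and Top2a.

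The precision differed across the set. The distance from estimate to bound of the 95% confidence interval, as a median, was 0.54 over the 22 genes and 0.45 over the 16 detected on all arrays, against 0.62 over all features. For Kif22, Prc1, Anln, Birc5 and Nusap1 the intervals were -0.36 to 0.43, -0.19 to 0.56, -0.16 to 0.65, -0.47 to 0.35 and -0.53 to 0.29, so differences of 1 log2 unit in either direction lay outside them. For Incenp, Bub3, Top2a, Mad2l1, Spc25 and Cdc25c the upper bounds were 2.28, 1.69, 1.26, 1.38, 1.39 and 1.01. The lower bound for Cdc25b was -1.48. A difference of 1 log2 unit in that direction lay within each of these intervals.

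The sign of the difference varied between the genes within each chip that held both groups. Within the dim chip, 10 of the 22 genes were higher with BRD7116 and the median difference was -0.0058, against 0.017 over all features. Within the second chip 11 were higher and the median was -0.0019, against 0.0028. In both chips 6 genes were higher, namely Cdc25c, Spc25, Incenp, Kif11, Prc1 and Anln, and 7 were lower, namely Cdk1, Cdc25b, Plk1, Aurka, Cdca8, Kif22 and Top2a. These were 27.3% and 31.8% of the set, against 27.6% and 25.6% of all features. Cdc25c and Spc25 were undetected on both arrays of the dim chip, so their sign there is that of background readings. Birc5 was equal on both arrays of the dim chip. For 8 genes the 2 chips differed in sign, or 36.4% against 46.5% of all features. With chip as a block 3 genes had an unadjusted limma p under 0.05, where 12.9% of all features did, and none passed after adjustment. These were Cdc25c (0.67, adjusted p = 0.366), Incenp (0.74, adjusted p = 0.368) and Cdc25b (-0.83, adjusted p = 0.373).

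**Figure D4:**
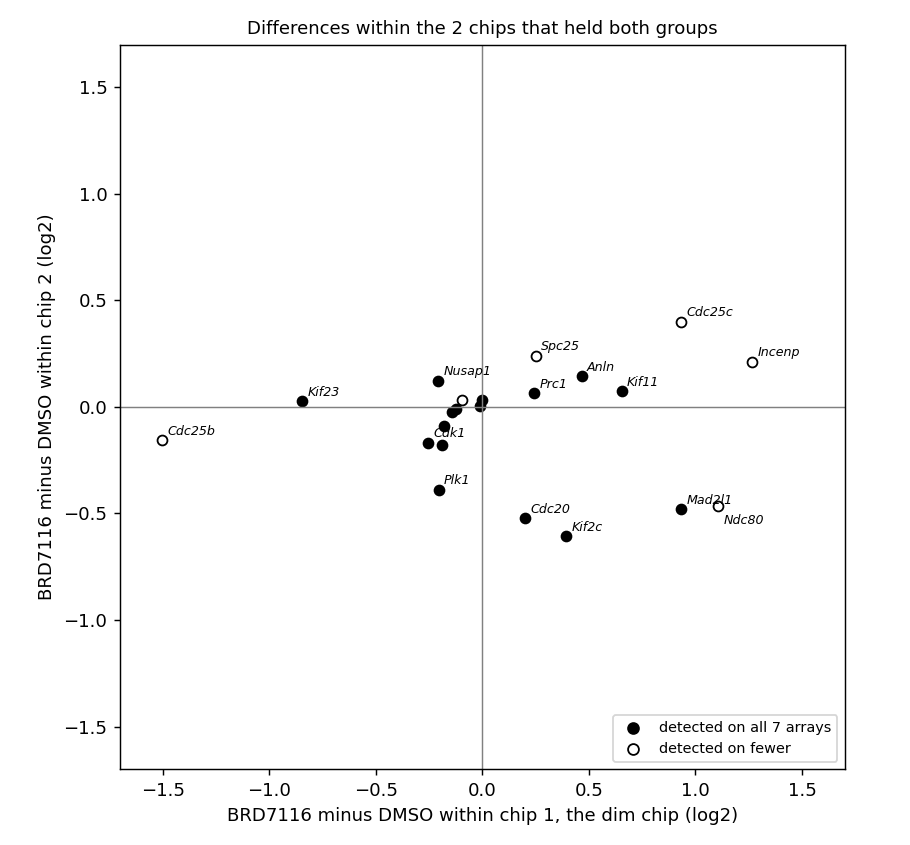
Difference of BRD7116 minus DMSO, in log2 units, within the dim chip (x axis) and within the second chip (y axis), each from 1 array of each group, for the 22 tested genes. Genes with a difference over 0.2 on either axis are named. Cdc25b lies far to the left, Cdc25c and Incenp to the upper right, and Mad2l1, Ndc80, Cdc20 and Kif2c are higher in the dim chip and lower in the second.

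The values of single genes and the median of the set followed which control was kept. The estimate moved by over 1.5 times or changed sign for 20 of the 22 genes without DMSO replicate 2 and for 17 without DMSO replicate 1, against 3 to 8 when 1 treated array was left out. A larger effect of the controls follows from the group sizes, 2 against 5. The share over all features is not given here, so the counts do not set these genes apart. Without DMSO replicate 2 the median over the 22 genes was -0.15, with 15 lower and 7 higher, against -0.012 over all features. Without DMSO replicate 1, where the only control is the one on the dim chip and is assumed to vary like the treated arrays, it was 0.14, with 14 higher and 8 lower, against 0.12. In that fit Mad2l1 (1.27, adjusted p = 0.0314) and Incenp (2.07, adjusted p = 0.0282) passed, 2 of 22 where 9.01% of all features passed. With both arrays of the dim chip left out the median was -0.030, against 0.0051 over all features. That fit also rests on a single control, DMSO replicate 1, and in it 0 genes passed and 0 of 22 had an unadjusted limma p under 0.05, where 9.52% of all features did.

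**Figure D5:**
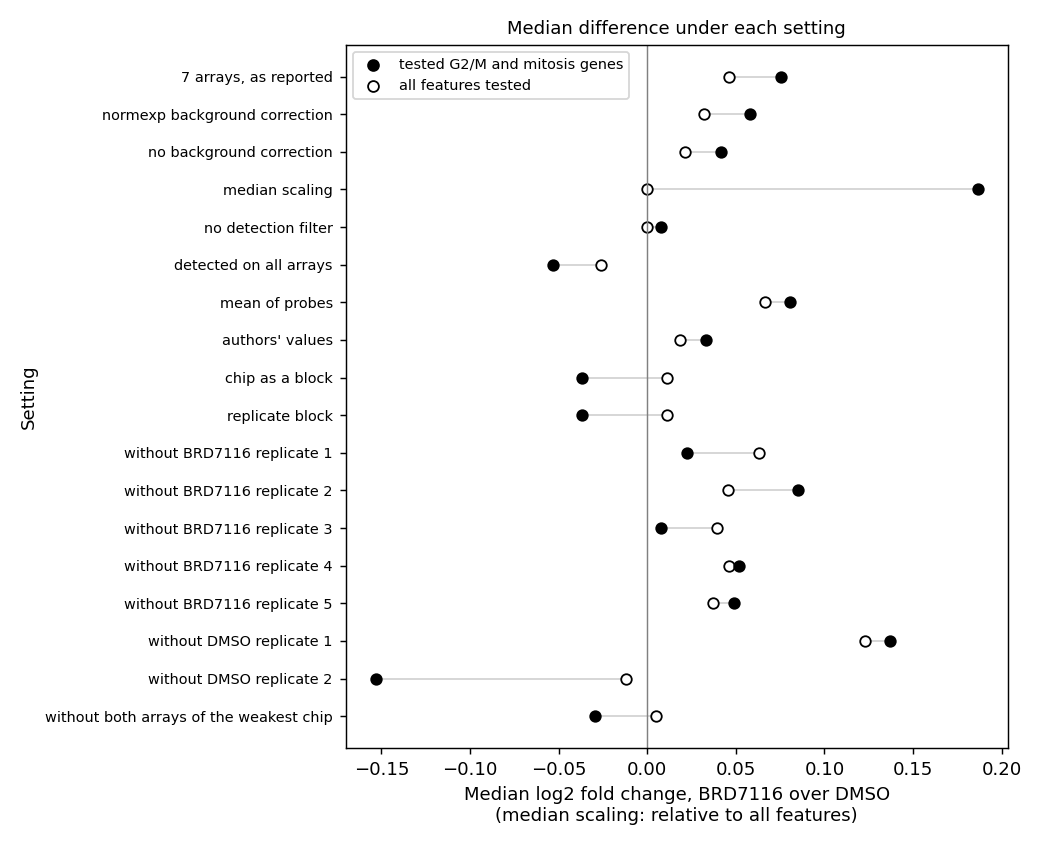
Median log2 fold change of BRD7116 over DMSO for the tested G2/M and mitosis genes (filled) and for all features (open) under each setting (rows). The set median is lowest, at -0.15, without DMSO replicate 2 and highest, at 0.19, under median scaling, where values are relative to the median of all features.

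Further genes of mitosis were examined in 6 lists with 116 genes in all, of which 67 were tested. With limma 0 of the 67 passed the threshold in either direction and 3 had an unadjusted p under 0.05, 1 higher and 2 lower, below the 7.07% of all features. The higher one was Cul1, which was detected on 4 treated arrays and 0 controls and so passed the filter only through the group where it was high. Of the 61 genes detected in both groups, 0 were higher and 2 lower at that p. Of the 5722 features so detected over the whole array, 175 were higher and 231 lower. The median log2 fold change over the 67 genes was 0.074, against 0.046 over all features, with 39 higher and 28 lower means. It was 0.21 without DMSO replicate 1, -0.079 without DMSO replicate 2, -0.051 over genes detected on all arrays and -0.038 without the dim chip, so that its sign depends on the setting. The groups did not overlap in 4 of the 67, or 5.97%, against 11.1% of all features. Among those detected in both groups they did not overlap in 3 of the 61, against 602 of the 5722. Mybl2 encodes B-Myb, which joins MuvB to switch on G2/M promoters. It read 6.19, 6.60, 6.63, 6.57 and 6.45 in BRD7116 replicates 1 to 5 and 6.99 and 7.50 in the 2 DMSO replicates. All treated arrays were below both controls, and the log2 fold change was -0.76 (standard error 0.21, adjusted p = 0.658), with differences of -1.31 on the dim chip and -0.39 on the second. In the same list Nfyc, a subunit of NF-Y, had -0.26 (standard error 0.17, adjusted p = 0.684).

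Among subunits and regulators of the anaphase-promoting and SCF ubiquitin ligases, Cul1, the scaffold of SCF, was undetected on both controls, and its level gave no fold bound above 1. Anapc7 had 1.13 (standard error 0.57, adjusted p = 0.661) and was detected on 4 treated arrays and 1 control. Its differences were -0.024 on the dim chip and 1.39 on the second. The Anapc7 estimate was 0.40 without background correction and 0.35 with the authors' deposited values. Stag2, a cohesin subunit, was higher on every treated array than on both controls, with 0.42 (standard error 0.24, adjusted p = 0.666). The margin was narrow, with the lowest treated array at 7.82 and the higher control at 7.81. Its differences were 0.028 on the dim chip and 0.65 on the second. The condensin gene Ncapd2 had 0.67 (standard error 0.40, adjusted p = 0.670). For regulators of the entry kinases, Mastl had -0.38 and Ensa, whose protein Mastl phosphorylates to restrain a phosphatase, had 0.37. At the kinetochore, Cenpn had 0.62 and Mis12 -0.45. Of the other spindle genes, the kinesin gene Kif18a had -0.82 and Nde1 0.98. Adjusted p-values of these 6 genes were 0.658 to 0.701. Without DMSO replicate 1, Mybl2 (-1.00, adjusted p = 0.0478) and Kif18a (-1.50, adjusted p = 0.0197) passed the threshold, in a fit where 9.01% of all features passed. Kif18a was detected on 1 treated array and 1 control. Without DMSO replicate 2, Ncapd2 had 0.11, Cenpn 0.12 and Ensa 0.10. Mastl and Mis12, like Kif18a, were each detected on 1 array of each group.

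The preceding stage of the cell cycle was set beside the mitotic genes. For 43 genes of the G1/S transition and DNA replication, 30 were tested, 0 passed, and the mean was higher for 11 and lower for 19, with a median log2 fold change of -0.11. A higher mean was thus seen for 36.7%, against 55.2% of all features and 45.9% of the features detected on all arrays. Of the 30 genes, 20 were detected on all arrays. The median was -0.21 without DMSO replicate 2, 0.11 without DMSO replicate 1 and 0.084 under median scaling, so that its sign turned under the latter pair. Mcm2, a subunit of the replicative helicase, read 8.08, 8.36, 8.34, 8.43 and 8.12 in BRD7116 replicates 1 to 5 and 8.80 and 8.80 in the 2 DMSO replicates. All treated Mcm2 values lay below both controls, and the log2 fold change was -0.53 (standard error 0.18, adjusted p = 0.658). Cdt1, which loads that helicase onto origins, read 7.77, 7.84, 7.51, 7.34 and 7.78 in BRD7116 replicates 1 to 5 and 7.31 and 6.45 in the 2 DMSO replicates. All treated Cdt1 values lay above both controls, with a log2 fold change of 0.76 (standard error 0.27, adjusted p = 0.658), which was 1.18 (adjusted p = 0.0365) without DMSO replicate 1 and 0.34 without DMSO replicate 2. The difference between the 2 lists was not tested.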

How the data were processed

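Biotin-labelled RNA from mouse leukemia cells was hybridized to Illumina MouseRef-8 v2.0 arrays, per the labels. For each probe the authors deposited a raw intensity, which their deposit names as not normalized, together with its detection p-value on every array. The scanner software is not given in the sources used here. They also deposited processed log2 values whose method is not stated. These had a median of 7.52 in every column, followed the ranks of the intensities within each array and served as an alternative.

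Intensities were processed with neqc (limma 3.58.1, R 4.3.3), which estimated background from the detection p-values, added an offset of 16 and quantile-normalized on the log2 scale. Of 25697 probes, 8613 had a detection p under 0.05 on 2 or more arrays, and the brightest probe represented each gene, giving 6969 features. Symbols came from the platform annotation, with 23978 probes named, 0 with several symbols and 1719 unnamed, and a RefSeq table changed 0 of them. BRD7116 (5 arrays) was compared with DMSO (2 arrays) by lmFit and eBayes, two-sided and with no covariate, and p-values were adjusted over the 6969 features by the Benjamini-Hochberg method. The number of arrays limits the precision.

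Array values were given for genes detected on all 7 arrays and for the 3 highest and 3 lowest fold changes, and from each further list the 2 genes with the smallest p were named. Genes, lists, tests and alternatives were chosen with earlier results of these data known. The same alternatives were applied to the further lists after the data were seen. The fit was tested on simulated data, in 20 runs with 200 changed genes. It recovered 31.5% of 2-fold and 73.75% of 4-fold changes, and 6.07% of its calls were false. A gene that did not pass may therefore still differ.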

Additional observations from a re-analysis of the deposited data

Results flagged for a closer look

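Among 36 genes examined for 1 of the 5 treated arrays standing apart from the other 4, 5 did so. The rule flags about 1 in 20 when the arrays scatter equally, which they did not. Over all features the SD of the deviations from the feature mean was 0.60 on BRD7116 replicate 1 and 0.28 to 0.31 on the other treated arrays. The share flagged over all features is not given, so the count does not set these genes apart. BRD7116 replicate 1, on the dim chip, lay below the other 4 for Bub3 at 4.80, Incenp at 6.75, Anapc7 at 4.67 and Nde1 at 5.38. DMSO replicate 2, on the same chip, read 4.89, 5.48, 4.70 and 4.62 for these genes. BRD7116 replicate 2 lay above the other 4 for Cenpn, at 7.46.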

How the results depend on the processing

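The count of tested G2/M and mitosis genes past the threshold was 0 in 16 of 17 alternatives and 2 without DMSO replicate 1, a range of 0 to 2 when 1 array was left out. Their median was 0.19 under median scaling, relative to a shift of 0.55 in all features, 0.0075 with no detection filter, -0.053 with detection on all arrays, -0.037 with chip as a block, -0.030 without the dim chip and -0.15 to 0.14 when 1 array was left out. Under median scaling 17 of the 22 genes had a higher mean, against 12. For 6 of the 22 genes, namely Cdc25b, Aurka, Cdca8, Kif11, Prc1 and Anln, the sign was the same under every alternative in which they were measured. Values of opposite sign were, under median scaling, Cdk1 0.11, Cdc25c -0.037, Plk1 0.050, Cdc20 0.18, Ndc80 -0.18, Birc5 0.20, Kif23 0.087, Kif2c 0.27, Nusap1 0.18, Ensa -0.011 and Nfyc 0.0040; with the mean of probes, Cdc20 0.13, Ndc80 -0.26 and Birc5 0.044; with chip as a block, Bub3 -0.032, Cenpa -0.0035, Birc5 0.017, Kif22 -0.066 and Top2a -0.13; and without the dim chip, Mad2l1 -0.43, Ndc80 -0.35 and Top2a -0.16. When 1 array was left out, sign changes occurred within ranges of -0.41 to 0.065 for Cdk1, -0.35 to 0.013 for Cdc20, -0.19 to 1.15 for Bub3, -0.51 to 1.27 for Mad2l1, -0.15 to 0.44 for Ndc80, -0.17 to 1.07 for Spc25, -0.14 to 0.022 for Birc5, -0.0080 to 2.07 for Incenp, -0.094 to 0.16 for Kif22, -0.14 to 0.072 for Kif2c, -0.39 to 0.73 for Top2a and -0.21 to 2.17 for Nde1. Over all features the count past the adjusted threshold was 0 as reported, 610 without DMSO replicate 1 and 0 to 2 under the others, and the count at an unadjusted limma p under 0.05 was 493 as reported, 900 with the chip block, 18 with the replicate block and 120 to 1638 when 1 array was left out. The causes were not tested. Arrays with equal replicate numbers lay on different chips, and their deviations from the group mean correlated at -0.52 and -0.32. With 2 controls these deviations mirror each other, and arrays with unequal numbers gave 0.52 and 0.32. These values therefore cannot decide whether replicate numbers pair the samples. The fit with the replicate number as a block gave a median of -0.037, the same estimates as the chip block, and 0 genes passed. At detection on all arrays, genes that failed that filter could not be tested. Signal over background on the dim chip limits the genes near background.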
